A study of Mus musculus with 5 samples.

Results

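The mitochondrial carrier family is described here across 5 microarrays of mouse CD4+ T cells. Its members were taken as every gene whose symbol begins with Slc25a and that had a probe set (a group of short DNA probes read together as 1 value) annotated with that symbol alone. This gave 44 genes on 93 probe sets, out of 18193 genes with such a probe set. Slc25a21, Slc25a43 and Slc25a52 had no probe set of this kind and were not analysed here. The cells carried a transgenic T cell receptor specific for MOPC315, a mouse myeloma, and came from Balb/c SCID mice aged 7 to 12 weeks, which largely lack other T and B cells of their own. In the activated group (3 arrays), 12 to 15 mice received 100000 MOPC315 cells under the skin of the flank in 250 µl of Matrigel, a gel of basement membrane proteins. On day 8 their draining axillary lymph nodes were pooled, and cells positive for CD4 and for the antibody GB113 were sorted to at least 95% purity, in 3 independent experiments. In the naive group (2 arrays), cells from pooled lymph nodes of the same transgenic SCID strain without tumor cells were handled in the same way, in 2 independent experiments. Both groups share the transgenic receptor and the SCID background. A group given Matrigel alone was not analysed here, so the gel and the tumor cells cannot be told apart.

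Carriers of this family are small proteins of the inner mitochondrial membrane that move nucleotides, phosphate, organic acids, amino acids and cofactors between the cytosol and the matrix. Most work as exchangers, so that import of 1 substrate is tied to export of another. A T cell that has met its antigen grows and divides, which draws on ATP from the mitochondria and on mitochondrial citrate, aspartate and folate products as building material. The family's best known members in dividing cells are the ADP/ATP carriers, the phosphate carrier and the carriers of the malate-aspartate shuttle, which brings the reducing power of cytosolic NADH into the matrix.

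Values are the deposited linear intensities, and differences are activated minus naive on the log2(intensity + 16) scale with their standard errors. The added 16 shrinks the differences of dim genes. The log2 profiles correlated at 0.970 to 0.977 within groups and at 0.929 to 0.944 between groups, over probe sets that are not independent replicates. The bulk arrays cannot tell fewer cells of a type from less RNA per cell. Of 10 T cell markers 9 were measured, all above the intensity filter on every array, with summed intensities of 18320 to 20050 in activated and 16410 to 16920 in naive cells. Of these, Cd5 was called higher and Thy1 lower in the limma fit, and the median log2 difference was 0.43, beside -0.03 for all tested genes. For this and the following lists, 6.36% of all tested genes were called higher and 4.14% lower. At an unadjusted limma p under 0.05, 12.8% of all tested genes were higher and 11.5% lower. The 14 myeloid markers summed to 7306, 215 and 1968 on activated arrays 1 to 3 and to 680 and 377 on the naive arrays, with 0 of 13 tested called in the limma fit (1 at an unadjusted p under 0.05). The 6 NK markers measured summed to 3954, 873 and 1011 on the activated and 934 and 1131 on the naive arrays, with 1 of 5 tested, Eomes, called higher. CD8 T cell markers summed to 271 to 406 in activated and 852 to 1040 in naive cells, of which Cd8b1 was called lower while Cd8a overlapped between the groups. B cell markers summed to 121 to 162 in activated and 72.4 to 75.6 in naive cells, and plasma cell markers to 263 to 332 and 189.7 to 193. Of 4 tested B cell markers Cd22 alone was called higher (59.7 to 92.6 in activated against 30.7 and 20.5 in naive cells). Pax5 (0.57), Cd79a (-0.14) and Ms4a1 (-0.13) overlapped between the groups and were not called. Of 4 tested plasma cell markers Tnfrsf13b alone was called higher. Sdc1 was lower on all activated arrays (1.5 to 7.8) than on the naive arrays (21.1 and 21.2). It entered the test through the naive arrays alone and was not called. Exocrine pancreas markers, from a gland that can be dissected with lymph nodes, summed to 185 to 223 in activated and 296 to 297 in naive cells. Of 5 tested, Cela3b (8.9 to 17.5 in activated against 81.1 and 85.5 in naive cells) and Ctrb1 (1.4 to 4.2 against 22.6 and 24) were called lower. Ctrb1 lay below the intensity filter on every activated array, so it entered the test through its naive arrays alone. Cela1 and Cela2a were lower on every activated array without a call, and Cela2a also entered the test through its naive arrays alone. Prss2, the brightest, was higher on every activated array (131.1 to 160.4 against 97.2 and 82.5) and was not called. Erythroid markers summed to 61.6 to 108 over all 5 arrays, and no fat cell marker passed the filter. The part of these other cells in the results below was not tested. The bioC hybridisation control was bright on activated arrays 1 and 2 and naive array 1 (639 to 725) and dim on activated array 3 and naive array 2 (172 to 209).

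The family showed no common shift, and its share of called genes was near that of all genes tested. Of the 44 genes, 39 passed the intensity filter and were tested. Citrin (Slc25a13), the ADP/ATP carrier Slc25a5 and the orphan carrier Slc25a53 passed as higher in the activated group (limma, adjusted over all 12873 genes tested, threshold 0.05). These 3 genes are 7.69% of the tested members, close to the 6.36% of all tested genes called higher. Slc25a13 passed the filter through its activated arrays alone, so it entered the test through the group where it was high, as did other such genes in the background. With no filter it was also called (adjusted p = 0.014). No member was called lower, where 4.14% of all tested genes were, and at an unadjusted p under 0.05 there were 7 members higher, beside 12.8% of all tested genes, and 2 lower, beside 11.5%. In 10 members (25.6%) every activated array was above both naive arrays, against 20.3% of all tested genes, and in 4 members (10.3%) every activated array was below, against 20.7%. The groups overlapped in the other 25. The median log2 difference of the tested members was -0.001, beside -0.03 for all tested genes, with 19 members above 0 and 20 below. Within 0.5 of 0 lay 31 members (79.5%) and 76.2% of all tested genes. Standard errors of the members ran from 0.15 to 0.30 with a median of 0.22. The 5 members that were not tested were Slc25a31, Slc25a34, Slc25a41, Slc25a48 and Slc25a54, and the highest intensity of any of them on any array was 20.2.

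**Figure D1:**
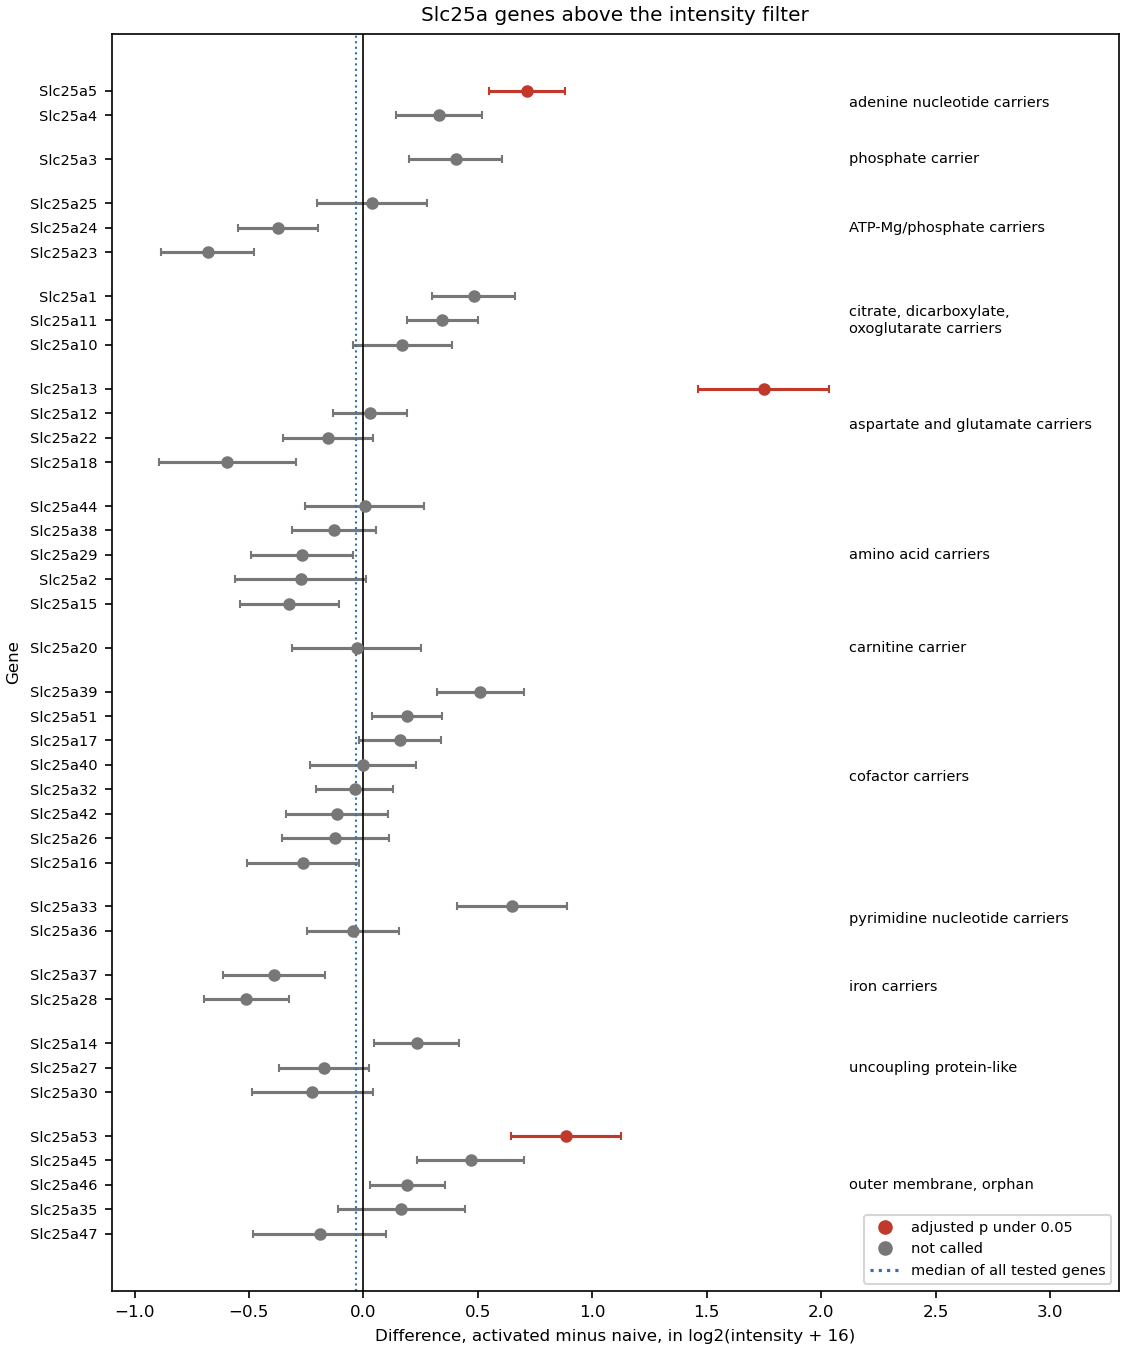
Log2 difference (activated minus naive, log2(intensity + 16) scale) of each of the 39 tested members, grouped by substrate, with bars of 1 standard error; red points are called and the dotted line is the median of all tested genes. Slc25a13 lies farthest right at 1.75, and 31 of the 39 lie within 0.5 of 0.

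**Figure D2:**
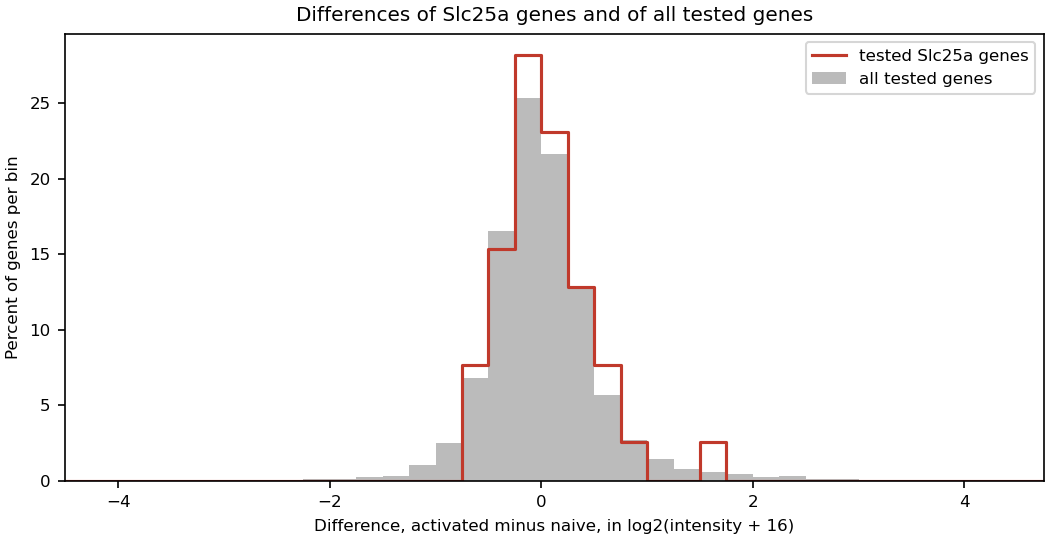
Histogram of the log2 differences of all 12873 tested genes, as a percent of genes per bin, with that of the 39 tested members drawn over it. Both centre near 0, with medians of -0.03 and -0.001.

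The ADP/ATP carriers exchange ADP from the cytosol for ATP made in the matrix. Slc25a5, the isoform of dividing cells, read 4169.9, 4204.7 and 3473.4 on activated arrays 1 to 3 and 2509.8 and 2273.7 on naive arrays 1 and 2. Every activated array was above both naive arrays. The mean was 3949 ± 412.5 (SD, n = 3) against 2392 ± 166.9 (SD, n = 2), a ratio of 1.65, and the log2 difference was 0.72 ± 0.17 (SE, adjusted p = 0.021). The call was lost without activated replicate 1 (0.67, adjusted p = 0.057), activated replicate 2 (0.67, 0.11), naive replicate 1 (0.79, 0.067) or naive replicate 2 (0.65, 0.15), and kept without activated replicate 3. It was also lost with no filter on dim probe sets (adjusted p = 0.069) and with no intensity trend in the variances (0.057).

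Slc25a5 was read by 8 probe sets, and on each of them the groups did not overlap, with log2 differences of 0.45 to 0.83. In a fit over all 23722 tested probe sets, 6 of the 8 were called higher. The 6 whose names end in _x_at hold probes shared with other sequences and could read a near-identical copy, and the RefSeq gene table lists a pseudogene, Slc25a5-ps. The suffix of 1430542_a_at marks transcripts of the same gene. Probe set 1438545_at has no such suffix and read 650.8, 571.2 and 523.1 on the activated and 366.1 and 289.4 on the naive arrays. Its log2 difference was 0.80 ± 0.18 (adjusted p = 0.022 over probe sets), also with no overlap. The uncalled pair, 1438360_x_at and 1438922_x_at, had differences of 0.45 and 0.48 (adjusted p = 0.19 and 0.21), and on both naive array 2 was well above naive array 1 (910.1 against 639.8, and 617 against 393).

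Slc25a4, the ADP/ATP carrier of heart and muscle, split between its probe sets. The brightest, which stands for the gene, read 1242.6, 1644.3 and 1824 on the activated and 1170.1 and 1295 on the naive arrays, a log2 difference of 0.33 ± 0.19 (adjusted p = 0.33). Activated array 1 lay between the naive arrays, so the groups overlapped. Probe set 1424562_a_at read 1125.1, 1299.3 and 1113.4 against 763.3 and 766.9, and 1455069_x_at read 1186.4, 1256.5 and 1154 against 816.2 and 771.5. On these the groups were well apart, with differences of 0.61 ± 0.16 and 0.58 ± 0.15, both called in the fit over probe sets (adjusted p = 0.040 and 0.041), although neither call held when any 1 of the 5 arrays was left out (highest adjusted p 0.17 and 0.20). Slc25a31, the isoform of testis, was at 0.5 to 2.4 on all arrays and was not tested.

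**Figure D3:**
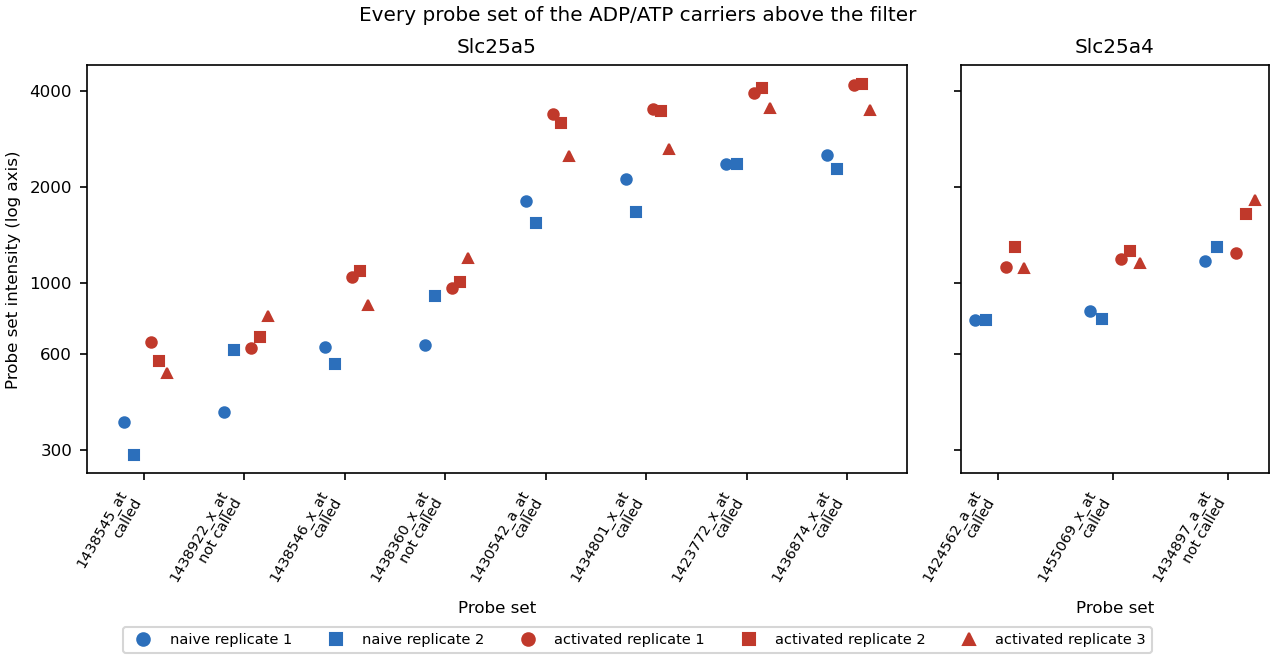
Intensity (log axis) of each tested probe set of Slc25a5 and Slc25a4 on the 3 activated and 2 naive arrays, 1 point per array. For Slc25a5 the activated points are above the naive points on all 8 probe sets, and for Slc25a4 on 2 of 3.

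Over all probe sets of the family, 79 of 93 were tested. Called higher were 9 (11.4%), beside 5.58% of all probe sets tested, and called lower were 0, beside 3.07%. They came from 3 genes: 6 from Slc25a5, 2 from Slc25a4 and 1 from Slc25a13. The share therefore counts the same carrier several times, since probe sets of 1 gene are not independent. Among the 20 members with more than 1 tested probe set, 14 had probe sets with differences in both directions.

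The phosphate carrier Slc25a3, which brings in the phosphate used to make ATP, read 3600.3, 3681 and 2436.2 on the activated and 2329.8 and 2480.5 on the naive arrays. Activated arrays 1 and 2 were far above both naive arrays, while activated array 3 lay between them. The log2 difference was 0.40 ± 0.20 (adjusted p = 0.26), which did not pass. Between the arrays with a bright bioC control it was 0.64, and between those with a dim one -0.03. The other tested probe set, at 24.3 to 55.2, had a difference of -0.17.

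The ATP-Mg/phosphate carriers set the size of the matrix nucleotide pool and respond to cytosolic calcium. None of the 3 tested passed. Slc25a23 read 35.1, 33.8 and 29.6 on the activated and 64.5 and 60 on the naive arrays. The groups were clearly apart, with 32.8 ± 2.88 (SD, n = 3) against 62.3 ± 3.18 (SD, n = 2), and the log2 difference of -0.68 ± 0.20 (adjusted p = 0.063) lay just outside the threshold. It was called lower after quantile normalization (adjusted p = 0.048), with the bioC split as a block (0.045) and with the mean of all probe sets per gene (0.019). Under the last, its own difference was the same, and the averaged values of other genes entered the variances and the adjustment. Slc25a24 also had every activated array (233.9, 314.2 and 250.2) below both naive arrays (338.9 and 354.3), at -0.37 ± 0.17 (adjusted p = 0.23). Its other probe set, 1427483_at, overlapped between the groups, at 0.13 (adjusted p = 0.84 over probe sets). Slc25a25 had a difference of 0.04.

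The citrate, dicarboxylate and oxoglutarate carriers link the citric acid cycle to the cytosol. All 3 tested had differences above 0 and none passed. Slc25a1, which exports citrate, the source of acetyl-CoA for fatty acid and sterol synthesis, read 138.6, 126.6 and 121.8 on the activated and 97 and 79.2 on the naive arrays. The groups did not overlap, and the log2 difference was 0.48 ± 0.18 (adjusted p = 0.13). Slc25a11, the oxoglutarate-malate arm of the malate-aspartate shuttle, read 387.1, 403.9 and 379.3 against 321.7 and 286.4, again without overlap, at 0.35 ± 0.15 (adjusted p = 0.20). Slc25a10, which exchanges dicarboxylates such as malate and succinate for phosphate, read 86.2, 71.3 and 54 against 59.2 and 60.7. Activated array 3 was the lowest of all 5, and the difference was 0.17 ± 0.22 (adjusted p = 0.69). The gene's other probe set was dim (15.9, 16.4 and 8.2 against 2.3 and 5.2). There the groups were apart, at 0.57 (adjusted p = 0.25 over probe sets). Of 13 tested enzymes beside these carriers and the aspartate carriers, among them citrate synthase and the malate dehydrogenases, none passed in either direction. Of all tested genes, 6.36% were called higher and 4.14% lower. The median log2 difference of these enzymes was 0.06. At an unadjusted limma p under 0.05, 3 of them were higher and 1 lower, beside 12.8% and 11.5% of all tested genes.

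The aspartate and glutamate carriers feed the malate-aspartate shuttle and glutamate metabolism. Citrin, Slc25a13, exports aspartate from the matrix in exchange for glutamate and is best known from liver. It read 54.3, 26.6 and 53.7 on the activated and 1.4 and 1.9 on the naive arrays. Every activated array was far above both naive arrays, and both naive values were below the intensity filter, so the gene entered the test through its activated arrays alone. The mean was 44.9 ± 15.8 (SD, n = 3) against 1.65 ± 0.35 (SD, n = 2), and the log2 difference was 1.75 ± 0.29 (adjusted p = 0.0032). Since the naive values were near the floor of the scale, its size followed the number added before the logarithm, with 4.05 at an added 1 and 0.72 at an added 64. It was called under each of the 13 other settings and with each array left out (1.63 to 1.99, highest adjusted p 0.027). Beside the summed myeloid markers, activated arrays 1 and 3 had near-equal values (54.3 and 53.7) at sums of 7306 and 1968, and activated array 2 (26.6) had a lower sum, 215, than the naive arrays (680 and 377), where Slc25a13 read 1.4 and 1.9. The array with the lowest myeloid sum was also the activated array with the lowest Slc25a13 value. The part of myeloid or other cells in the Slc25a13 values was not tested. Its difference was 1.65 between the arrays with a bright bioC control and 1.96 between those with a dim one. Slc25a13 rested on 1 probe set.

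The other aspartate-glutamate carrier, aralar (Slc25a12), read 608.9, 742.4 and 716.3 on the activated and 639.5 and 709.1 on the naive arrays. These values were interleaved, and the difference was 0.03 ± 0.16 (adjusted p = 0.95), with 2 SE to either side covering -0.29 to 0.35. Its other tested probe sets, 1436440_at and 1444489_at, had differences of -0.41 (adjusted p = 0.40) and -0.59 (adjusted p = 0.12) in the fit over probe sets. The mitochondrial glutamate carrier Slc25a18 was dim, at 1.6, 8.5 and 6.9 on the activated and 22.2 and 11.5 on the naive arrays. It entered the test through its naive arrays alone, and its difference was -0.60 ± 0.30 (adjusted p = 0.26). The related Slc25a22 had a difference of -0.16.

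**Figure D4:**
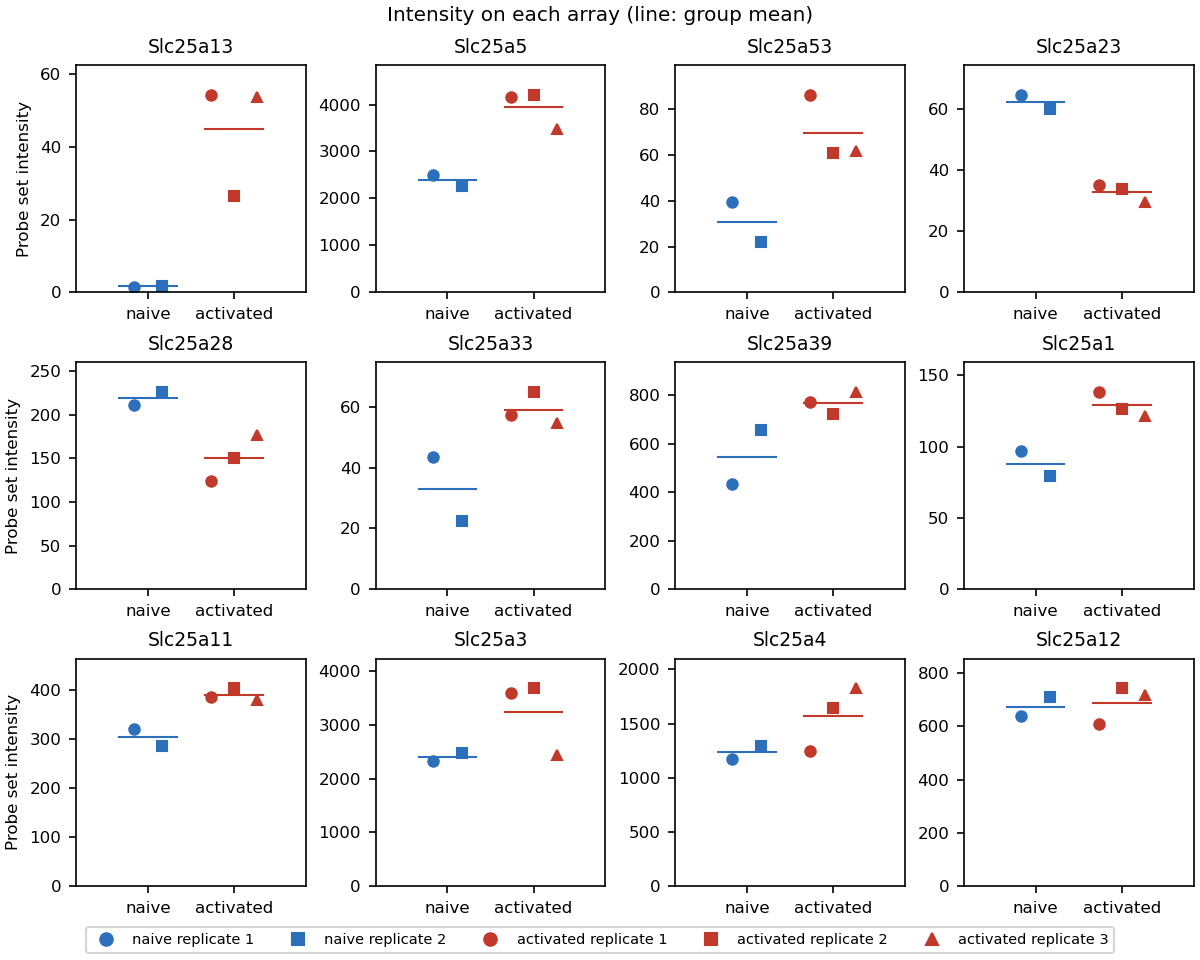
Intensity on each array (linear axis from 0, scaled per gene) of 12 members described by their values, 1 panel per gene, 1 point per array, with a line at each group mean. Slc25a13 shows the widest gap, with activated arrays at 26.6 to 54.3 and naive arrays at 1.4 and 1.9.

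The promoters of Slc25a5, the called member with the most probe sets, and Slc25a13, the member with the largest difference, are printed from RefSeq promoter windows (build GRCm38.p6, 250 bases before to 50 after the transcription start, in the direction of the gene). The bases before the start are shown, with the letters CACGTG, an E-box that many basic helix-loop-helix factors bind, in capitals. Slc25a5 lies on the plus strand (chrX:36795347-36795596) and has no such letters there, and Slc25a13 lies on the minus strand (chr6:6217174-6217423) with CACGTG beginning 125 bases before its start.
Slc25a5: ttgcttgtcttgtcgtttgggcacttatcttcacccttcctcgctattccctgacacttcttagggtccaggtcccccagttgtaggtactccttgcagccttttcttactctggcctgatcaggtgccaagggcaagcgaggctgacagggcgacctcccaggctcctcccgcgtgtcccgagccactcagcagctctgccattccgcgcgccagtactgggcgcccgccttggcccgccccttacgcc
Slc25a13: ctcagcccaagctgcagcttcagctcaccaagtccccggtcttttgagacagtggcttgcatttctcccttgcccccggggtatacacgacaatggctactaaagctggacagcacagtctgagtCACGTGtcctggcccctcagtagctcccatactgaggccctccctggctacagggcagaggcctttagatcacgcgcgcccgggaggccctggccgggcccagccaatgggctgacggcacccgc

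Of the 44 members, 34 had promoter windows in that table, 43 in all. CACGTG, the same on both strands, was found in 8 member windows of 7 genes (18.6%) and in 2349 of all 32851 windows (7.15%). The NRF1 core GCGCATGCG, searched on both strands and not containing CACGTG, was in no member window and in 575 windows (1.75%). The stretches around CACGTG in 3 other members whose values are given here show how its distance from the start differed, at 8 bases before it in Slc25a33 (chr4:149774258-149774287, minus strand), 239 in Slc25a1 (chr16:17928441-17928469, minus strand) and 187 in Slc25a36 (chr9:97111211-97111240, minus strand).
Slc25a33: cccggcctccgcCACGTGacggccgcgcgc
Slc25a1: cgctccagacgCACGTGtctctaaactgc
Slc25a36: cccctgggcgatCACGTGaaagaggcgtgc
The other members with the letters were Slc25a14, Slc25a15 and the untested Slc25a31. Members with CACGTG thus include 1 called gene, 5 that did not pass and 1 that was not tested, and binding at these letters was not measured.

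Among the carriers of ornithine, basic amino acids, glycine and branched-chain amino acids, none of 5 tested passed, with differences of -0.32 to 0.01. Slc25a38, which brings in glycine for the first step of heme synthesis, read 100.3, 109.5 and 91 on the activated and 121.4 and 100.9 on the naive arrays. The values overlapped, at -0.13 ± 0.18 (adjusted p = 0.73). The ornithine carrier Slc25a15 of the urea cycle had the lowest difference of the group, -0.32 ± 0.22 (adjusted p = 0.41).

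Slc25a20 exchanges acylcarnitine for carnitine, the entry step of long-chain fatty acids into oxidation. It read 188.8, 290.6 and 380 on the activated and 220.6 and 359.4 on the naive arrays. The activated arrays held both the lowest and the highest value, and the difference of -0.03 ± 0.28 (adjusted p = 0.97) leaves -0.59 to 0.53 within 2 SE. The second probe set, with a shared-probe suffix, had every activated array (120.5, 94.8 and 103) above the naive arrays (79.2 and 58.1), at 0.53 ± 0.21 (adjusted p = 0.15 over probe sets).

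None of the 8 tested cofactor carriers passed, with differences of -0.26 to 0.51 and a median of -0.02. Slc25a39, a carrier needed for the entry of glutathione into mitochondria, read 770.1, 724 and 814.5 on the activated and 434.5 and 657 on the naive arrays. All activated arrays were above both naive arrays, which were far from each other, and the difference was 0.51 ± 0.19 (adjusted p = 0.13). It passed with the bioC split as a block (0.56, adjusted p = 0.024), and its 3 other tested probe sets had differences of 0.04 to 0.37 with overlapping groups. Slc25a32, the carrier of folate and FAD, was level, at 132.9, 139.6 and 151.8 against 141 and 150.2. Its difference was -0.04 ± 0.17 (adjusted p = 0.92), with -0.38 to 0.30 within 2 SE. On its probe set 1435483_x_at every activated array was below both naive arrays, at -0.22 (adjusted p = 0.52 over probe sets), and the dim 1429462_at had a difference of 0.07. The NAD carrier Slc25a51 had activated arrays at 366.7 to 403.6 and naive arrays at 319 and 344, apart but not called at 0.19 ± 0.15 (adjusted p = 0.50). Its probe set 1454712_at was apart in the other direction, at 138.3 to 153.3 in activated and 168.5 and 163.3 in naive cells. There the difference was -0.16 (adjusted p = 0.63 over probe sets), and on 1427425_at the groups overlapped, at 0.03. Slc25a40, the near relative of Slc25a39, had a difference of -0.001.

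The pyrimidine nucleotide carriers supply the matrix with precursors of mitochondrial DNA and RNA. Slc25a33 read 57.2, 65 and 54.6 on the activated and 43.5 and 22.3 on the naive arrays. Its groups were apart, with naive array 2 far below naive array 1, and the difference of 0.65 ± 0.24 (adjusted p = 0.12) did not pass. Slc25a36 read 428.6, 567.3 and 611.8 against 466.1 and 642.8, interleaved, at -0.05 ± 0.20 (adjusted p = 0.93). Its probe set 1419656_at had a difference of 0.39 (adjusted p = 0.27 over probe sets) with the groups apart. On 1438520_at, also without a suffix, the groups overlapped, at -0.09 (adjusted p = 0.88 over probe sets). Among 20 tested enzymes beside the cofactor, nucleotide and amino acid carriers, the median was 0.11. At an unadjusted limma p under 0.05, 5 were higher and 3 lower, beside 12.8% and 11.5% of all tested genes. After adjustment 1 was called higher and 1 lower, beside 6.36% and 4.14% of all tested genes. The lower was Cmpk2, a mitochondrial pyrimidine nucleotide kinase that is also an interferon-induced gene, at 109.2, 131.2 and 106.7 against 524.5 and 607.3. Its groups lay far apart, at -2.15 ± 0.17 (adjusted p = 3.4e-05), and the call held with each array left out. Dguok, the kinase of mitochondrial purine deoxynucleosides, was higher at 340, 327.1 and 313.6 against 231.2 and 188.1. Its difference was 0.61 ± 0.16 (adjusted p = 0.040), and the call was lost with each of the 5 arrays left out (0.47 to 0.75, highest adjusted p 0.26).

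The mitoferrins bring iron into the matrix for heme and iron-sulfur clusters. Slc25a28, mitoferrin 2, read 123.6, 150.3 and 176.2 on the activated and 211.2 and 226.4 on the naive arrays. Every activated array was below both naive arrays, and the difference of -0.51 ± 0.19 (adjusted p = 0.12) did not pass. Slc25a37, mitoferrin 1, the form of red cell precursors, read 115.8, 128.5 and 194.5 against 174 and 212, with activated array 3 between the naive arrays, at -0.39 ± 0.22 (adjusted p = 0.33). Beside it, the erythroid markers summed to 80.6, 108 and 73.9 on the activated and 61.6 and 91.5 on the naive arrays, also overlapping.

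Of the uncoupling protein-like members, Slc25a14, Slc25a27 and Slc25a30 had differences of 0.23, -0.17 and -0.22, and none passed. The 4 tested probe sets of Slc25a30 ran from -0.29 to 0.67. Slc25a46, an outer membrane protein that shapes mitochondria and no transporter of the inner membrane, read 412.6, 355 and 439.2 on the activated and 338 and 359.9 on the naive arrays. Activated array 2 lay between the naive arrays, and the difference was 0.19 ± 0.16 (adjusted p = 0.53). On its other probe set, 1448970_at, every activated array was above both naive arrays, at 0.33 (adjusted p = 0.28 over probe sets). Slc25a45 was at 249.3, 334.5 and 358 against 285.2 and 168.9, with a difference of 0.47 ± 0.23 (adjusted p = 0.26) that was 0.02 between the arrays with a bright bioC control and 1.02 between the others.

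Slc25a53, whose substrate is not established, was the third called member. It read 86.1, 60.9 and 61.6 on the activated and 39.3 and 22.1 on the naive arrays. All activated arrays were above both naive arrays, with means of 69.5 ± 14.4 (SD, n = 3) and 30.7 ± 12.2 (SD, n = 2), and the difference was 0.89 ± 0.24 (adjusted p = 0.043). In the fit over all probe sets the same values had an adjusted p of 0.054. The gene's other probe set read 22.1, 30.2 and 36.8 against 34.8 and 34.3, overlapping, with a difference of -0.16 (adjusted p = 0.75 over probe sets), and with the mean of both the gene was not called (0.36, adjusted p = 0.19). Without activated replicate 1 (0.75), activated replicate 2 (0.96), activated replicate 3 (0.95) or naive replicate 2 (0.62) the call was also lost, with adjusted p of up to 0.28, and it was kept without naive replicate 1. No filter (0.12) and no intensity trend (0.061) ended the call as well.

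Family members without an Slc25a symbol were few: Ucp1, the brown fat uncoupler, did not pass the filter, Ucp2 was not analysed here, and Ucp3 had a difference of -0.18 (adjusted p = 0.72). The carrier homologs of the outer membrane, Mtch1 and Mtch2, of which Mtch2 inserts helical proteins there, were both called higher. They were 2 of 3 tested in this list, beside 6.36% of all tested genes called higher. Mtch1 read 135.8, 113.4 and 118.1 on the activated and 72.2 and 73.6 on the naive arrays, and its difference was 0.64 ± 0.18 (adjusted p = 0.049). Mtch2 read 570.2, 576.5 and 541.9 against 383.6 and 365.8, at 0.57 ± 0.15 (adjusted p = 0.037). Both sets of values were apart. Either call was lost when any 1 of the 5 arrays was left out (0.57 to 0.68 and 0.53 to 0.60, highest adjusted p 0.17 and 0.19), and the mean over all probe sets of Mtch2 gave 0.11 (adjusted p = 0.69) and its probe sets without suffix 0.50 (0.13). Mtch1 was also not called after quantile normalization (adjusted p = 0.052), without the filter (0.094), with 64 added (0.055) or with array weights (0.056).

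Carriers reach the inner membrane through the TOM complex, small chaperones between the membranes and the TIM22 complex. Of 14 tested genes of that route, 1 was called higher and 1 lower, beside 6.36% and 4.14% of all tested genes, with a median of 0.03. The small chaperone gene Timm8b read 238.4, 277 and 243 on the activated and 149.8 and 152.9 on the naive arrays, apart, at 0.68 ± 0.16 (adjusted p = 0.024). Timm9, another small chaperone, read 49.5, 65.6 and 57.8 against 125.1 and 120.4, apart in the other direction, at -0.92 ± 0.19 (adjusted p = 0.011). The Timm8b call was lost without activated replicate 2 and without either naive array, and the Timm9 call without either naive array (highest adjusted p 0.11 and 0.071).

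Among 16 tested transporters of other families, 1 was called higher and none lower, beside 6.36% and 4.14% of all tested genes, with a median of 0.13. At an unadjusted limma p under 0.05, 3 were higher and 0 lower, beside 12.8% and 11.5% of all tested genes. Vdac1, the main pore of the outer membrane through which carrier substrates pass, read 1014.3, 1127.1 and 1097.8 on the activated and 665.6 and 683.9 on the naive arrays. The groups were well apart, at 0.66 ± 0.15 (adjusted p = 0.018), and the call was lost without activated replicate 2 and without either naive array (highest adjusted p 0.095).

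The bioC control cut across the groups, so the family could be compared within each side of it. The log2 difference had the same sign on both sides in 29 of the 39 tested members and opposite signs in 10. For members whose groups did not overlap, such as the 3 called genes, the sign on each side is fixed by that, and the sizes are a description: 0.73 and 0.61 for Slc25a5 and 0.68 and 1.03 for Slc25a53 on the bright and the dim side.

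**Figure D5:**
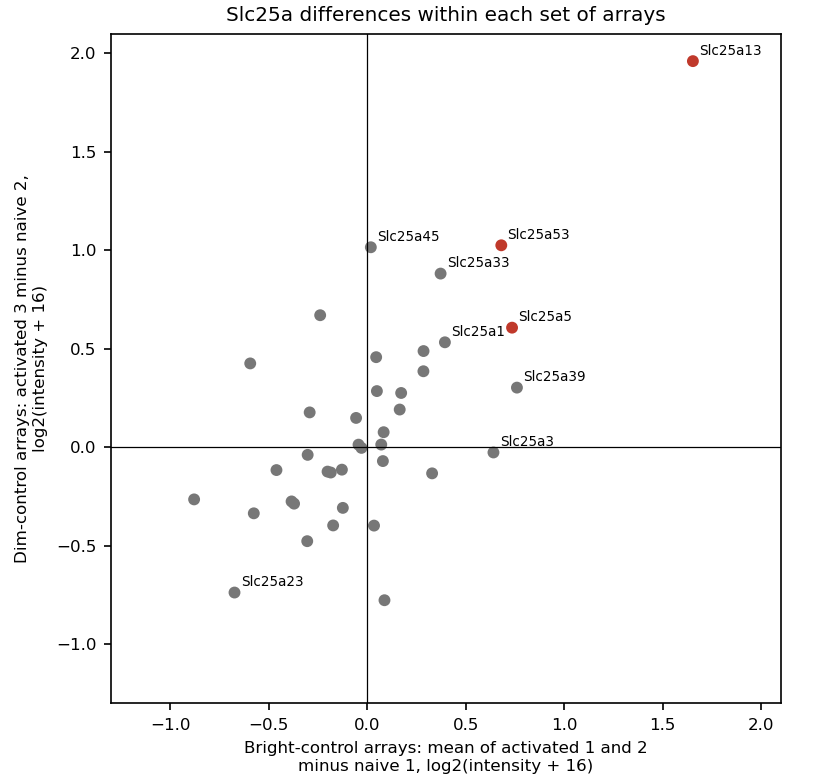
Log2 difference of each tested member between the arrays with a dim bioC control (activated 3, naive 2; vertical axis) against that between the arrays with a bright one (activated 1 and 2, naive 1; horizontal axis), with the called members in red. Slc25a13 is high on both axes at 1.65 and 1.96, Slc25a45 lies near 0 on one at 0.02 and at 1.02 on the other.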

How the data were processed

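Biotin-labelled cRNA made from 6 µg of Trizol-extracted total RNA was hybridised to 5 Affymetrix arrays, per the labels' protocols. The authors deposited 1 linear intensity per probe set and array, and the 2% trimmed mean of 100 on each array is what a global scaling leaves. How probes were summarised is not given in the sources used here. Of 45101 probe sets, 34945 had 1 gene symbol in the platform annotation, 932 had several (1 of them with an Slc25a symbol, left out), 9160 had none and 64 were controls. From these, log2(intensity + 16) was computed. Each gene was read by its brightest probe set of 1 symbol, and tested if at least 2 arrays had it over their 40th percentile (an intensity of 10.5 to 13.4). Groups came from the sample labels. The test was limma 3.58.1 in R 4.3.3 with group as the only term and an intensity trend in the variances, two-sided, with Benjamini-Hochberg adjustment over all genes at 0.05, and it was tested on simulated data. With 3 and 2 arrays, p-values measure the spread between these pooled samples. Values were given on every array for each called member, for members listed by name, and for members whose groups did not overlap with a difference of at least 0.5, and others were added for context after their values were seen. The members and lists were chosen with earlier results of these data known. Alternatives were 2 normalizations, 2 filters, 2 pseudocounts, 2 rules for probe sets, 2 variance priors, array weights, 2 blocks and leaving out each array. Protein sequences were not used here.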

Additional observations from a re-analysis of the deposited data

How the results depend on the processing

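Slc25a13 was called higher under all 13 other settings and with each array left out. The count of 3 members called higher became 1 (Slc25a13) without the filter on dim probe sets and 1 (Slc25a13) without the intensity trend, and was 1 to 2 with 1 array left out. The count of 0 called lower became 1 (Slc25a23) with quantile normalization, 1 with the mean of all probe sets and 1 with the bioC split as a block. The count of 9 called probe sets became 2 without the filter and 1 without the trend, and was 1 to 7 with 1 array left out. All called genes numbered 1352, and 643 to 1198 with 1 array left out, lowest without naive replicate 2. The members' median was -0.029 to 0.149 with 1 array left out, highest without naive replicate 1. Of 353 alternative values of the 20 members whose values are given by rule, 318 kept their direction and side of the threshold, 13 lost the call, 5 gained one and 17 changed sign. Only the 3 called members could lose a call, and the 13 losses all fell on Slc25a5 and Slc25a53. Settings that change only the filter or the variance prior leave a difference as it was.

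The sign turned for Slc25a3 with probe sets without suffix (-0.17), for Slc25a36 with the mean of all probe sets (0.085), probe sets without suffix (0.39) and the bioC block (0.015), for Slc25a12 with the mean of all probe sets (-0.32) and the replicate block (-0.0021), and for Slc25a20 with the mean of all probe sets (0.25) and the bioC block (0.080). With 1 array left out, Slc25a32 ran from -0.086 to 0.0022, Slc25a36 from -0.27 to 0.18, Slc25a12 from -0.045 to 0.112 and Slc25a20 from -0.36 to 0.30. The causes were not tested. Without the intensity trend, Timm8b, Dguok, Mtch1, Mtch2, Vdac1 and both called probe sets of Slc25a4 were not called (adjusted p = 0.057 to 0.10), and with each array centred on its median Dguok, Mtch1, Mtch2 and the same probe sets were not (0.062 to 0.075). Without the filter, Dguok (0.054) and these probe sets (0.063 and 0.065) were not called.

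The deviations of same-numbered arrays from their group means correlated at 0.17 and -0.13, and those of activated replicate 3 and naive replicate 2 at 0.31. With 2 naive arrays the naive deviations mirror each other, so these values cannot show whether the replicate numbers pair the arrays. Under the replicate block, which can use only activated and naive replicates 1 and 2, 4 members were called, with Slc25a3 added (0.60, adjusted p = 0.0094), and Mtch1 was not called (adjusted p = 0.078). This block takes out activated replicate 3, on which Slc25a3 (2436.2) lay between the naive arrays. With so few arrays left, its p-values rest largely on the variance prior taken from other genes. Naive cells had 2 arrays, and dim members such as Slc25a13 in naive cells are set by the floor of the scale.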
